A study of Mus musculus with 17 samples.

Results

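Transcription factor p53 switches on a small set of genes after DNA damage, and 9 of these targets were followed here in single cells of the mouse pancreas after streptozotocin (STZ). They were Phlda3, Ccng1, Cdkn1a, Mdm2, Trp53inp1, Bax, Eda2r, Zmat3 and Bbc3, a list of established targets chosen with earlier results of these data known. All 9 were found among the 40824 genes of the table of unique molecular identifiers (UMIs). The questions were whether their response to STZ was limited to beta cells and how long it lasted. The study sorted cells carrying red fluorescent protein (RFP) from Ngn3-Cre; Rosa-RFP mice, in which the Cre recombinase is driven from a gene of endocrine progenitors, and read single cells by a modified STRT-seq protocol. All groups carried this genotype. Adult males were 2 months old when they received 1 intraperitoneal dose of 200 mg/kg STZ after fasting overnight. Control males of the same age received citrate buffer and had 3 libraries. STZ mice carrying insulin implants gave 2 libraries at day 12 and a single library at day 6, day 30, day 42, month 2, month 5 and month 9. At month 9 the implants had been discontinuous for the last 2 months. A further 2 libraries came from STZ mice at month 2 without implants, and 4 came from untreated pups at postnatal days 3, 12 (2 libraries) and 21. The day 6 group carries that name in the sample labels, while the text of the series also speaks of day 1 for it. Nothing in the labels says whether replicate libraries came from separate animals, so p-values measure the spread between libraries. Time after STZ also cannot be told apart from age.

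STZ is a sugar-linked alkylating agent that enters beta cells through the glucose transporter GLUT2 and damages their DNA. After such damage p53 is stabilised and binds response elements built from a pair of short half-sites near its target genes. Cdkn1a encodes p21, which inhibits cyclin-dependent kinases and halts the cell cycle. Ccng1 encodes cyclin G1, and Mdm2 encodes the ubiquitin ligase that returns p53 to low levels. Phlda3 encodes a small pleckstrin homology domain protein that competes with Akt for membrane lipids and so restrains Akt signalling. Bax and Bbc3 (PUMA) promote death through mitochondria, Trp53inp1 encodes a stress protein that promotes p53 activity and autophagy, Zmat3 encodes a zinc finger RNA-binding protein, and Eda2r encodes a receptor of the tumour necrosis factor family.

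In the GENCODE annotation of build GRCm38, Phlda3 lies at chr1:135766119-135769136 on the plus strand, Ccng1 at chr11:40748552-40755311 on the minus strand and Cdkn1a at chr17:29090976-29100727 on the plus strand. Windows upstream of the members' transcription starts were searched on both strands for the p53 half-site consensus, because the members are grouped by their shared regulator. Of 32851 such windows of 250 bases in the mouse RefSeq set (build GRCm38.p6), 7.13% held at least 1 half-site and 0.0639% held a pair at most 13 bases apart. Entries were found for 7 of the 9 members, the exceptions being Trp53inp1 and Zmat3, and 4 of the 7 (Cdkn1a, Ccng1, Mdm2 and Bax) held a half-site. The windows of the 3 members whose levels differed most after STZ are shown for their first 220 bases, from 250 to 31 bases before the start, with half-sites in capitals. They lie at chr17:29090729-29090948 on the plus strand for Cdkn1a, chr11:40755317-40755536 on the minus strand for Ccng1, and chr1:135765835-135766054 on the plus strand for Phlda3.
Cdkn1a: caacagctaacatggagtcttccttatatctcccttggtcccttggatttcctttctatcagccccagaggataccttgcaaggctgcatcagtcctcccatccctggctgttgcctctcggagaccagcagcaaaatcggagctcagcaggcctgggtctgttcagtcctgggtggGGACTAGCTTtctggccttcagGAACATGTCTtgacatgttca
Ccng1: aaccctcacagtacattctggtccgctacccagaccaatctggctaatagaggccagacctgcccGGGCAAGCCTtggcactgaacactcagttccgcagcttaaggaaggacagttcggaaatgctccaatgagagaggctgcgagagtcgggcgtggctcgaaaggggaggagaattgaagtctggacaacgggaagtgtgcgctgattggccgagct
Phlda3: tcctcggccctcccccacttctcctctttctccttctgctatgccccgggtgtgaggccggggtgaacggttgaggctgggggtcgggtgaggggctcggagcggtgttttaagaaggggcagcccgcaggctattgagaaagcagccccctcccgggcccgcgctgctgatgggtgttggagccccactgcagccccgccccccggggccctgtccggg
The Cdkn1a window held a pair, starting 73 and 51 bases before the start, and the Ccng1 window held 1 half-site at 185 bases. In the Phlda3 window these letters did not occur. A second RefSeq start of Cdkn1a held none. These matches describe the letters and were not tested for binding.

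The 17 libraries held between 22 and 295 cells and 1420536 to 26298456 UMIs. Cells were grouped by clustering without the 9 members and the other lists, and clusters were named from marker lists, giving 1018 beta, 603 alpha, 259 delta, 163 PP and 757 acinar cells. These names rest on the clusters rebuilt here. UMIs were summed per library and class, and levels are given as CPM, the gene's share of all UMIs of that class and library scaled to 1000000. The beta class held 210, 139 and 21 cells in the controls and 8 (month 2) to 68 (month 5) cells in the implanted STZ libraries. Without implants it held 6 and 11. Of the adult beta cells, 1 control cell fell outside a single beta cluster. Most alpha cells of control replicate 1 (28 of 33) lay in another cluster than those of control replicate 2, of which 1 of 34 did, and of the implanted STZ libraries, of which at most 2 cells in any library did. Acinar cells, which are not endocrine, were present among the sorted cells, and their medians were 134218 UMIs per cell against 61203 in beta cells.

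Phlda3 was the member with the clearest response in beta cells. Its level was 1.43, 1.42 and 1.46 CPM in the 3 controls (20, 12 and 2 UMIs). At day 6 it was 114 CPM (206 UMIs in 32 cells). The day 12 libraries stood at 20.7 and 47.6 CPM, and day 30 and day 42 at 16.7 and 24.3. Month 2 had 0 of 396020 UMIs in its 8 beta cells, which allows a level of up to 7.58 CPM by counting error alone. Levels at months 5 and 9 were 25.1 and 17.4 CPM. All STZ libraries with implants but that of month 2 thus lay above every control, and the 3 controls were close together. With edgeR, Phlda3 rose 23.5-fold (log2 4.56 ± 0.80, SE; adjusted p = 0.00255) over the 8 STZ and 3 control libraries. It was the 1 of 8 tested members to pass, where 2.81% of all 10737 genes passed. Across genes at 1 CPM or more on average, 5.12% lay above every control in at least 7 of the 8 libraries.

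**Figure D1:**
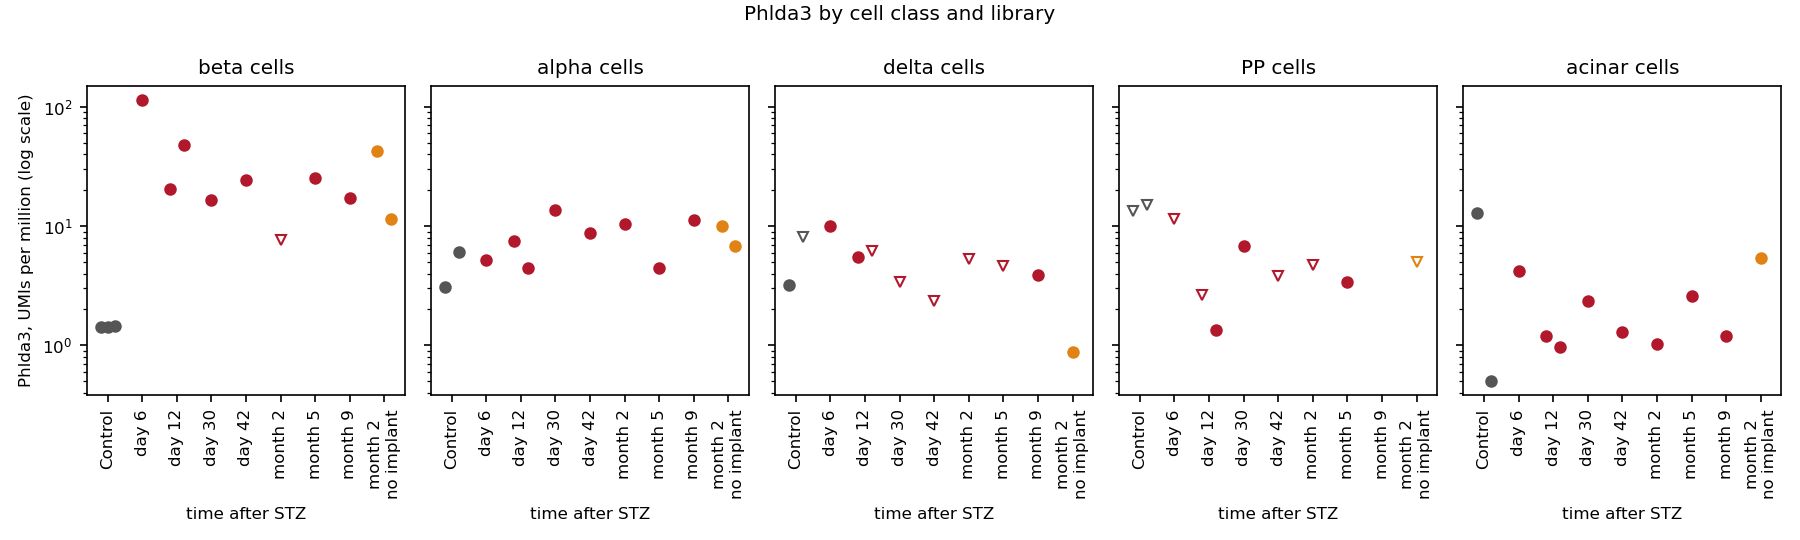
Phlda3 level per library in 5 cell classes (vertical axis, CPM on a log scale) by time after STZ, with controls in grey, implanted STZ libraries in red and those without implants in orange. Open triangles mark libraries with 0 UMIs, drawn at the limit that a count of 0 allows, and in beta cells all other STZ libraries stand above the 3 controls at 1.42 to 1.46 CPM.

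A few cells carried much of the Phlda3 RNA in some libraries. In day 12 replicate 2, 87 of the 108 UMIs came from 1 cell (80.6%), and in day 6 the highest cell gave 28.6% of the UMIs. In month 5 the highest cell gave 11.7%. Markers of PP cells were also higher in the STZ beta cells. Their summed level was 2736, 5510 and 3914 CPM in controls with 5 of 6 markers detected, and 8969 to 33748 CPM in implanted STZ libraries with 3 to 6 detected. Markers of delta cells summed to 294 to 1251 CPM in control beta cells, with 4 to 7 of 7 detected, and to 793 to 6791 CPM in implanted STZ beta cells, with 4 to 6 detected, and 6 of the 8 lay above every control. Beta cell markers summed to 240864 to 250553 CPM in control beta cells. They summed to 120100 to 222713 CPM in all implanted STZ beta cell libraries but month 2, which had 251452 CPM. In implanted STZ libraries with at least 5 cells of the class, PP cells held at most 6.77 CPM of Phlda3 and delta cells at most 10.1 CPM. The part of these marker differences in the Phlda3 result was not tested directly. Beta cells carrying at least 1000 per 100000 UMIs of another class's leading gene made up 3.33% to 14.3% of control and 16.2% to 53.4% of implanted STZ beta cells, and without them the change was as large (log2 4.58, adjusted p = 0.00204). Raw read file names give control replicate 2 the same prefix as month 2 and part of the cells of day 6 and day 30. This prefix was taken as 1 run, although the labels do not say what it stands for. Within it the Phlda3 difference was 4.34 ± 1.82. That fit held 1 control library, so it cannot decide whether the change holds within a run. Blocking on the labels' batch number gave 4.67 (adjusted p = 0.0332).

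Ccng1 and Cdkn1a were next in size, and neither passed over the whole STZ arm. Ccng1 stood at 49.2, 72.1 and 64.1 CPM in controls. It was 333 CPM at day 6, 92.2 and 148 at day 12, 115 at day 30, 97.2 at day 42, 37.9 at month 2, 147 at month 5 and 73.9 at month 9. Month 2 lay below and all other STZ libraries above the 3 controls, that of month 9 by a small margin. At least 7 of the 8 lay above every control for 5.12% of genes. The Ccng1 difference was log2 1.09 ± 0.40 (adjusted p = 0.195). Ccng1 passed with no filter on low counts (adjusted p = 0.0314). It also passed when day 6 and month 2 were both left out (log2 0.88 ± 0.24, adjusted p = 0.049). That fit was chosen after seeing the data, and these libraries had the highest and the lowest level of Ccng1 as well as of Phlda3. Leaving out both ends of its own range narrows its spread, so no conclusion is drawn from that pass. Cdkn1a stood at 78.5, 48.7 and 172 CPM in controls, with replicate 3 well above the others. After STZ it was 581 CPM at day 6, 248 and 187 at day 12, 316 at day 30, 55.8 at day 42, 12.6 at month 2, 243 at month 5 and 51.0 at month 9. Levels of 5 STZ libraries exceeded every control, as did at least 5 for 17.5% of genes, while 2 lay within the controls' range and month 2 lay below it. The difference was log2 1.11 ± 0.67 (adjusted p = 0.569).

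**Figure D2:**
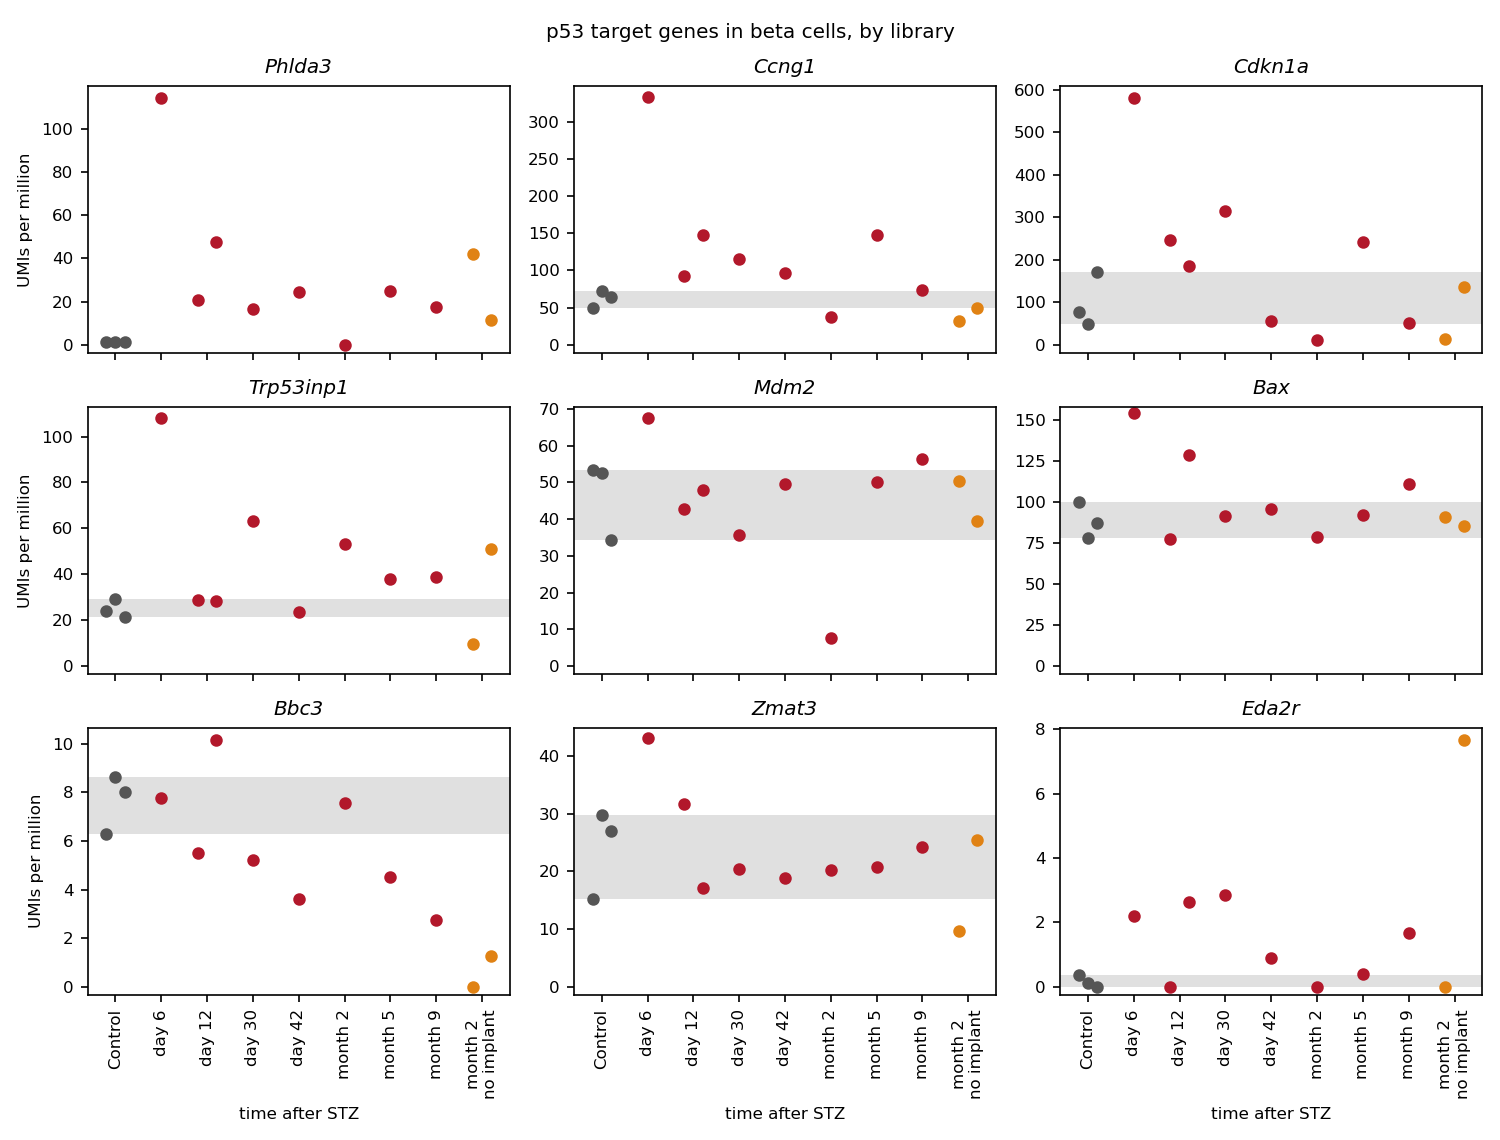
Level of each of the 9 genes in beta cells per library (vertical axes from 0, CPM) by time after STZ, with the range of the 3 controls as a grey band, implanted STZ libraries in red and those without implants in orange. Day 6 has the highest level of the implanted STZ libraries for Phlda3, Ccng1, Cdkn1a, Trp53inp1, Mdm2, Bax and Zmat3, and month 2 the lowest for Phlda3, Ccng1, Cdkn1a and Mdm2.

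The remaining members moved less, or were too low to judge. Trp53inp1 was at 21.1 to 29.4 CPM in controls and 23.4 to 108 CPM after STZ (log2 0.92 ± 0.37, adjusted p = 0.256). Levels of 5 of its 8 STZ libraries exceeded every control, as did at least 5 for 17.5% of genes. Mdm2, the feedback regulator of p53, ran from 34.2 to 53.5 CPM in controls and from 7.58 to 67.6 after STZ (log2 -0.03 ± 0.30, adjusted p = 0.992). Bax had 77.9 to 99.9 CPM in controls and 77.1 to 154 after STZ (log2 0.22 ± 0.19, adjusted p = 0.777). Among the death genes Bbc3 was much sparser, with 3 to 23 UMIs in each implanted STZ library, and its difference was -0.42 ± 0.49 (adjusted p = 0.868). Zmat3 was at 0.04 ± 0.31 (adjusted p = 0.991). The sign for Mdm2 and Zmat3 turned under several alternatives. Eda2r had 5, 1 and 0 UMIs in the controls and at most 9 in an STZ library, and was left out of the test by the filter on low counts. Its highest level was 2.85 CPM at day 30, and these counts are too few to set it apart from the controls. The median log2 difference of the 8 tested members was 0.57, beside 0.00138 over all genes tested. Deposited counts are not stated to use strand, and an antisense gene overlaps Cdkn1a and another gene overlaps Bax on the same strand.

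How long the response lasted was asked by setting each time point against the controls in 1 fit that also held the pups and the mice without implants. Where a time had a single library, its spread was borrowed from the groups with several. At day 6, 2 of 9 members rose, where 0.224% of 13395 genes were called. Phlda3 rose 74.0-fold (log2 6.21 ± 0.90, adjusted p = 0.0048) and Ccng1 rose 5.04-fold (2.33 ± 0.34, adjusted p = 0.0048). Cdkn1a was at 2.45 ± 0.65 (adjusted p = 0.225) and Trp53inp1 at 2.01 ± 0.61 (adjusted p = 0.401). At day 12, Phlda3 rose by 4.56 ± 0.83 (adjusted p = 0.0135), the 1 member of 9 called against 0.679% of genes. The day 12 call was lost with the batch number as a block (adjusted p = 0.0923), without day 12 replicate 2 (0.147) and without control replicate 1, 2 or 3 (0.0654, 0.0976 and 0.0527). Ccng1 was at 0.94 ± 0.30 on that day.

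Later times gave fold changes of Phlda3 that were smaller than at day 6 and did not pass in that fit. Log2 differences were 3.53 ± 0.95 at day 30 (adjusted p = 0.251), 4.18 ± 0.97 at day 42 (0.0972), 4.19 ± 0.89 at month 5 (0.0624) and 3.45 ± 0.90 at month 9 (0.129). Members called by edgeR numbered 0 of 9 at each of these times and at month 2. Genes called made up 0.164% at day 30, 0.358% at day 42, 0.0821% at month 2, 0.291% at month 5 and 0.605% at month 9. Unadjusted p was under 0.05 for 4 members at day 30, 1 at day 42, 2 at month 2, 2 at month 5 and 1 at month 9. With no filter on low counts, edgeR called Phlda3 at day 30 (adjusted p = 0.000364), day 42 (9.81e-06), month 5 (4.01e-07) and month 9 (0.000112). DESeq2 called Phlda3 at day 42 and month 5, and no member at day 30, month 2 or month 9. When the same contrasts were fitted on controls and implanted STZ libraries alone, an alternative chosen after seeing the data, Phlda3 was called at every time but month 2, with adjusted p = 0.00291 at day 30, 0.000675 at day 42, 0.000299 at month 5 and 0.000995 at month 9. With at least 10 beta cells per library, a further such alternative, it was called at day 42 (adjusted p = 0.0181), month 5 (0.00587) and month 9 (0.0224) and not at day 30 (0.0532). In both, Cdkn1a was called at day 6 (adjusted p = 0.0135 and 0.00544) and Ccng1 at month 5 (0.0438 and 0.0331). Month 2 gave no fold for Phlda3, since its count of 0 allows a level above that of the controls. Its limit of 7.58 CPM lay below all the other implanted STZ libraries. That limit covers counting error only and rests on 8 beta cells, so it does not set month 2 apart from the other times.

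**Figure D3:**
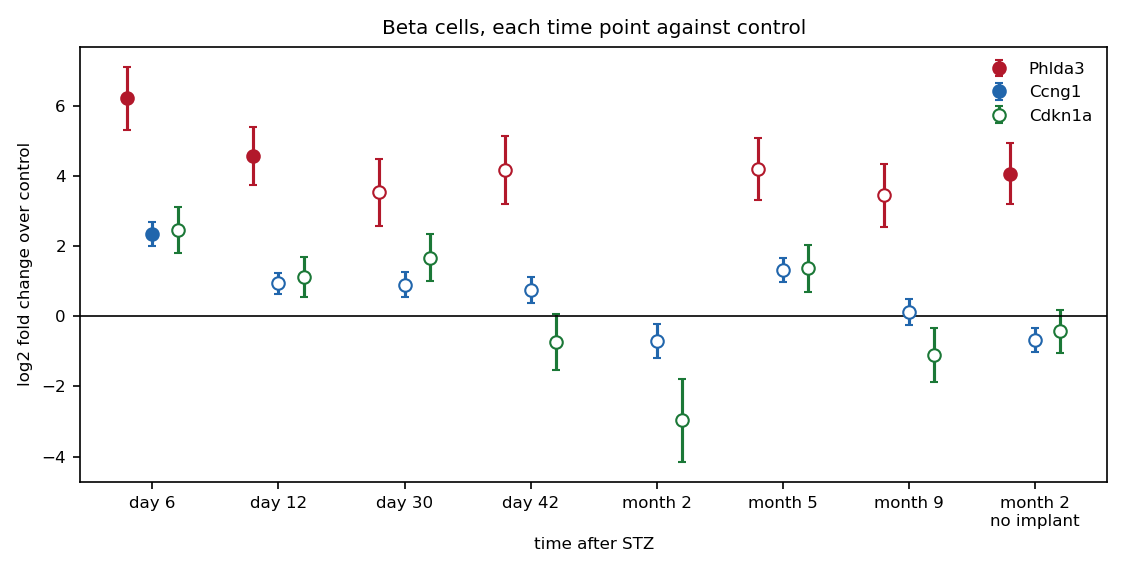
Log2 fold change over control in beta cells (vertical axis, error bars are SE of the edgeR fit) for Phlda3, Ccng1 and Cdkn1a at each time after STZ, with filled points where the adjusted p was under 0.05. Phlda3 stays between 3.45 and 6.21 at all times drawn with implants, while Ccng1 and Cdkn1a lie below 0 at month 2, and no Phlda3 point is drawn there because the library had 0 UMIs.

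A trend across the 8 implanted STZ libraries asked whether the members declined with time. Per doubling of days after STZ, Phlda3 was at -0.40 ± 0.12 on the log2 scale, Ccng1 at -0.25 ± 0.09 and Cdkn1a at -0.38 ± 0.15. These 3 had unadjusted p under 0.05 (0.00583, 0.0165 and 0.0235), and 0 of 8 members passed with edgeR (adjusted p = 1.0 for each), nor did any of the 10205 genes (0.0%). DESeq2 called 0 members as well. Without day 6 the slope of Phlda3 was -0.19. Days 6 and 12 were also set against day 30 to month 9, where Phlda3 was 1.69 ± 0.49 higher (unadjusted p = 0.00347, adjusted p = 0.957). Of all genes, 0.0098% were called, and 0 of 8 members were, 2 of which had unadjusted p under 0.05. With no filter on low counts Phlda3 passed in that comparison (1.67, adjusted p = 0.000141). The difference was 0.91 without day 6.

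Without implants at month 2, Phlda3 was 42.2 and 11.5 CPM (26 and 9 UMIs in 6 and 11 beta cells), above every control. It rose by 4.06 ± 0.87 (adjusted p = 0.0186) and was the 1 of 9 members called, where 2.6% of genes were. The call was lost with the batch block (adjusted p = 0.063), without replicate 1 (0.159) and without control replicate 1, 2 or 3 (0.0729, 0.0889 and 0.0514). PP markers summed to 61343 and 37951 CPM in these beta cells. Acinar markers summed to 4145 and 56991 CPM against 9184 to 28767 in controls. Beta cell markers summed to 95533 and 107053 CPM, against 240864 to 250553 in controls and 120100 to 251452 in implanted STZ libraries. Cells carrying another class's leading gene made up 83.3% and 63.6% of the beta cells without implants, and the part of these differences in the result was not tested. Against the month 2 library with implants, 0 of 9 members were called by edgeR (2 at unadjusted p under 0.05), where 0.0896% of genes were. DESeq2 was not run on that contrast. Ccng1 was 32.5 and 49.8 CPM, the first below and the second close to the lowest control, and Cdkn1a was 14.6 and 137 CPM.

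In single cells Phlda3 was found in a minority of beta cells. After thinning each beta cell to 30392 UMIs, 3.16%, 1.53% and 0% of control cells had a Phlda3 UMI (6 of 190, 2 of 131 and 0 of 19 cells; the last allows up to 15.8%). The share was 37.9% at day 6 (11 of 29 cells, exact Clopper-Pearson interval 20.7% to 57.7%). It was 20% and 13.8% at day 12, 20.8% at day 30, 38.9% at day 42, 33.3% at month 5 (21.7% to 46.7%) and 19.6% at month 9 (10.2% to 32.4%), and 0 of 8 cells at month 2, which allows up to 37.5%. The intervals of day 6 and month 5 lay above those of all 3 controls, and the intervals of the other times overlapped that of control replicate 3. They cover counting error only. The median over the 8 STZ libraries was 20.4%, or 30.5% before thinning. Alpha cells thinned to 23772 UMIs had shares of 3.33% and 6.06% in controls and 0% to 13.6% in implanted STZ libraries, the highest at day 30. For Cdkn1a the alpha cell shares were 13.3% and 24.2% in controls and 25% to 46.9% in implanted STZ libraries, with all 8 above both controls. How many genes do so was not counted, and no test was made. In CPM the ranges overlapped, 46.2 to 86.8 in alpha controls and 44.0 to 149 after STZ. Shares of Zmat3 in acinar cells also lay apart, at 16.4% to 19.0% in controls and 20% to 52% after STZ. Here too the share of genes doing so was not counted, and no test was made. In CPM the Zmat3 ranges overlapped, 4.80 to 11.5 in acinar controls and 6.39 to 16.1 after STZ.

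**Figure D4:**
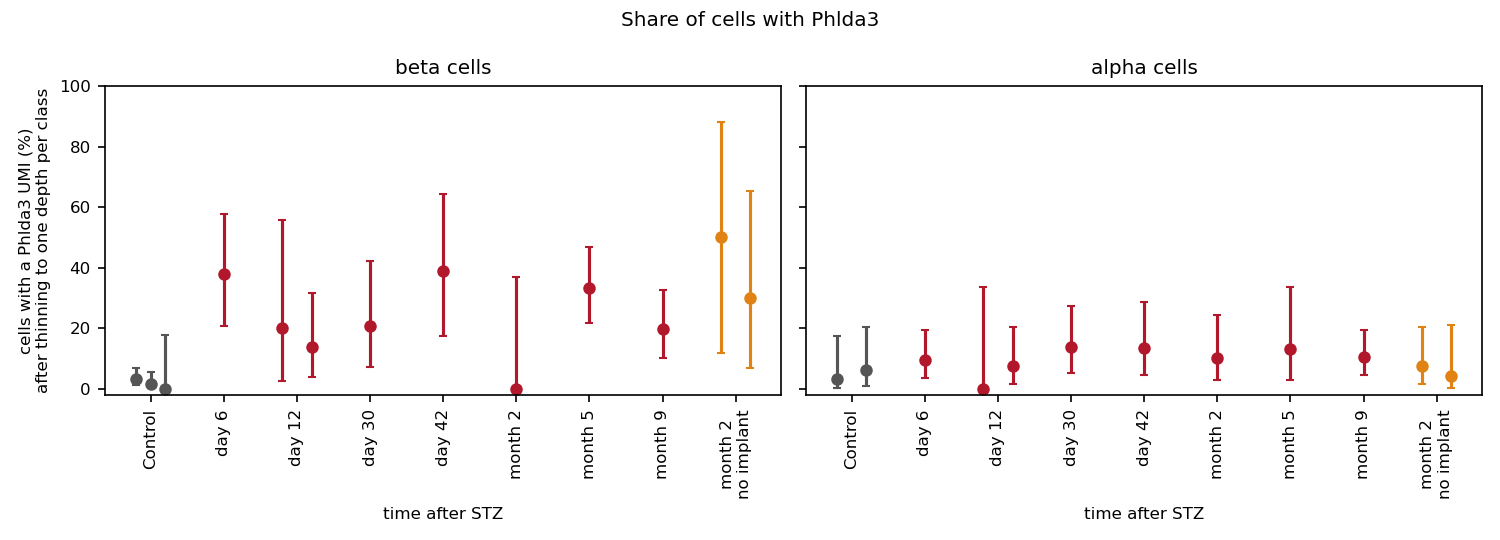
Percent of beta and alpha cells with a Phlda3 UMI in each library after thinning to 1 depth per class (vertical axis), with exact 95% binomial intervals as bars, for controls in grey, implanted STZ libraries in red and those without implants in orange. At day 6, 37.9% of beta cells had a UMI against 0% to 3.16% in controls, while alpha cells lie between 0% and 13.6% in all libraries drawn.

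Within libraries, the correlation of Phlda3 with the other members over beta cells varied by member. Among the 29 thinned cells of day 6, the Spearman correlation of Phlda3 with Ccng1 was 0.71, with Cdkn1a 0.60 and with Bax 0.58, while it was 0.31 with Trp53inp1, 0.29 with Mdm2 and 0.16 with Zmat3. At day 30 (24 cells) Ccng1 and Cdkn1a had 0.55 and 0.53. At month 5 (60 cells) they had 0.23 and 0.38, and at month 9 (56 cells) 0.26 and 0.39. Control replicate 1 (190 cells) gave 0.23 and 0.28. Cells of a library share its preparation, and these values are descriptions whose differences between libraries were not tested.

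Alpha cells, the glucagon-producing neighbours of beta cells, gave 0 of 8 tested members called with edgeR, with DESeq2 and at unadjusted p under 0.05, among 10954 genes of which 0.0% were called. Phlda3 was 3.08 and 6.05 CPM in the 2 controls. In STZ libraries it was 5.23 CPM at day 6, 7.44 and 4.46 at day 12, 13.8 at day 30, 8.72 at day 42, 10.5 at month 2, 4.41 at month 5 and 11.2 at month 9. Levels of 5 of the 8 lay above both controls, as did at least 5 for 19.2% of genes. The difference was log2 0.91 ± 0.72 (adjusted p = 0.998). Ccng1 was at 0.24 ± 0.31 and Cdkn1a at 0.61 ± 0.38 (both adjusted p = 0.998). Cells carrying another class's leading gene made up 33 of 33 and 26 of 34 alpha cells in the controls, and without them Ccng1 was at 0.77 ± 0.57 and Cdkn1a at 2.16 ± 0.89 (adjusted p = 0.706 and 0.581), with 1 control library left. Eda2r had 0 UMIs in both controls, which allows 1.85 and 2.02 CPM, and was found in 6 of 8 implanted STZ libraries. At least 5 of the 8 lay above both controls for 19.2% of genes. The share at 6 or more was not counted, so the count for Eda2r is not read as setting it apart. It had 36 UMIs (6.20 CPM) at month 9 and 13 (4.25 CPM) at day 6. The filter left it out of that test, and it was not called at any time point. At single times 0 of 9 members were called in alpha cells by edgeR or DESeq2, and at most 1 had an unadjusted p under 0.05. Of 12854 genes, 0.405%, 0.0934%, 0.0311% and 0.07% were called at days 6, 12, 30 and 42, and 0.0467%, 0.109% and 0.101% at months 2, 5 and 9.

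Delta cells make somatostatin and PP cells make pancreatic polypeptide, and both classes held little Phlda3. In delta cells it had 1 UMI and 0 UMIs in the controls and 0 to 6 UMIs in the STZ libraries, with 10.1 CPM at day 6 the highest (4 UMIs). In PP cells it had 0 UMIs in both controls and 0, 0, 1, 5, 0, 0 and 2 in the 7 STZ libraries from day 6 to month 5. It was not tested in either class, because the filter on low counts removed it, and Eda2r had 0 UMIs in both classes throughout. In delta cells, 0 of 6 tested members were called by edgeR or DESeq2 (0.0% of 8634 genes), with Ccng1 at -0.29 ± 0.40 and Cdkn1a at 1.02 ± 0.61 (adjusted p = 0.882 and 0.697). Zmat3 had 22.6 and 37.7 CPM in the delta cell controls and 5.71 to 22.1 CPM after STZ, below both controls in 8 of 8 libraries, as for 2.23% of genes (log2 -1.65 ± 0.73, adjusted p = 0.575). It was the 1 member of 6 with an unadjusted p under 0.05 (0.0328). In PP cells 0 of 7 tested members were called by either tool or at unadjusted p under 0.05 (0.0% of 8101 genes), and Ccng1 was at 0.30 ± 0.56 (adjusted p = 0.92). Cdkn1a had 0 and 3 UMIs in the PP controls and 5 to 60 in the STZ libraries. At single times 0 members were called in either class by edgeR or DESeq2, and at most 1 had an unadjusted p under 0.05. Of 10824 genes in delta cells, 0.37%, 0.185%, 0.0647% and 0.0924% were called at days 6, 12, 30 and 42, and 0.139%, 0.342% and 0.176% at months 2, 5 and 9. In PP cells the share of 9986 genes was 0.03% at day 6, 0.02% at day 12, 0.03% at day 30, 0.0401% at day 42 and at month 2, and 0.0% at month 5. Without control replicate 2, 2 calls of members were made in PP cells.

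Acinar cells secrete digestive enzymes, and their controls disagreed on Phlda3. Control replicate 1 had 13 CPM, with 38 of its 43 UMIs in 1 cell (88.4%), and control replicate 2 had 0.505 CPM. STZ libraries ran from 0.961 CPM at day 12 to 4.18 at day 6, all between the controls. The difference was -2.10 ± 0.72 (adjusted p = 0.121), and it was 0.99 without control replicate 1. Ccng1 was at -0.66 ± 0.27 (adjusted p = 0.181) and Cdkn1a at 0.15 ± 0.67 (0.923). Members called numbered 0 of 9 with edgeR and with DESeq2, where 0.347% of 11804 genes were called, and 3 (Phlda3, Ccng1 and Bax, all lower) had unadjusted p under 0.05. At single times 0 of 9 were called by edgeR or DESeq2, and at most 3 had an unadjusted p under 0.05. Of 14023 genes, 0.0713%, 0.185%, 0.0499% and 0.121% were called at days 6, 12, 30 and 42, and 0.0499%, 0.0214% and 0.185% at months 2, 5 and 9. Cells carrying another class's leading gene made up 81.0% of acinar cells in control replicate 1 and 30.1% in replicate 2. Without such cells the Phlda3 difference was 1.32 ± 1.63 (adjusted p = 0.649), in a fit that held 1 control library, since control replicate 1 fell below the minimum of 5 cells.

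Whether the STZ effect was larger in beta cells than elsewhere was tested as the difference of the 2 effects, with the library as a block. For Phlda3 the beta cell effect exceeded that of alpha cells by log2 3.24 ± 1.15, which did not pass (unadjusted p = 0.00995, adjusted p = 0.482), and 0 of 8 members did so with edgeR or DESeq2, where 0.206% of 12118 genes did. With no filter on low counts Phlda3 passed (3.20, adjusted p = 0.0175). No difference is given for Phlda3 against delta cells, whose controls had 1 and 0 UMIs (adjusted p = 0.759; 0.196% of 11249 genes called), or against PP cells, whose controls had 0 UMIs (adjusted p = 0.981; 0.143% of 9768 genes called). In both, 0 of 8 members were called by edgeR and by DESeq2, with 2 of 8 at unadjusted p under 0.05 against delta cells and 0 of 8 against PP cells. Against acinar cells, Phlda3 differed by 5.83 ± 1.09 (adjusted p = 0.0143), the 1 of 9 members called where 0.379% of 13968 genes were. That call was lost without control replicate 1 (3.33, adjusted p = 0.381). It was also lost without cells carrying another class's leading gene (3.15, adjusted p = 0.583), a fit that drops control replicate 1 too. For Ccng1 the differences were 0.74 ± 0.52 (alpha), 1.19 ± 0.54 (delta), 0.76 ± 0.57 (PP) and 1.66 ± 0.48 (acinar), with adjusted p = 0.954, 0.593, 0.771 and 0.105. Cdkn1a was 0.78 ± 0.78 higher than in alpha, 0.44 ± 0.68 than in delta and 1.33 ± 0.54 than in acinar cells (adjusted p = 0.991, 0.926 and 0.260). These comparisons share the beta cell libraries.

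**Figure D5:**
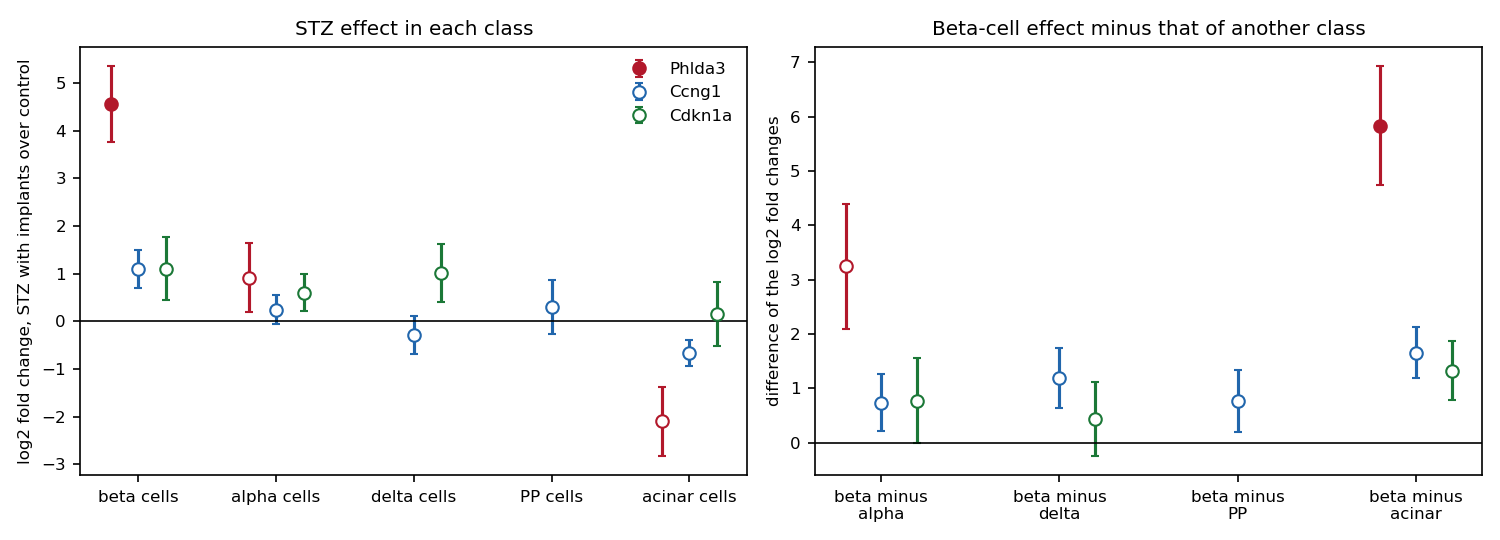
Left, log2 fold change of implanted STZ libraries over control in each cell class, and right, the beta cell effect minus that of each other class, for Phlda3, Ccng1 and Cdkn1a (error bars are SE of the edgeR fits, filled points have an adjusted p under 0.05). Phlda3 passes in beta cells at 4.56 and in the difference from acinar cells at 5.83, and points are left out where a gene was not tested or a control had 0 UMIs.

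Other genes of the pathway were given from lists. Of 34 other p53 targets, 23 were tested in beta cells and 1 rose, Zfp365, a zinc finger gene whose product acts at damaged and repetitive DNA (log2 2.42 ± 0.57, adjusted p = 0.0233), with 0 falling, where 2.81% of all genes were called. The list's median was 0.38 beside 0.00138 over all genes. Of 17 regulators of p53 and DNA damage signalling, 0 of 12 tested were called (median 0.04), and Trp53 itself, which encodes p53, was at 0.78 ± 0.30 (adjusted p = 0.232). Without implants at month 2, Trp53 rose (1.67 ± 0.42, adjusted p = 0.0412) as 1 of 14 tested regulators, and Zfp365 rose (3.8 ± 0.83, adjusted p = 0.0196) as 1 of 30 tested targets. Of all genes, 2.6% were called in that comparison, and Trp53 was named after its values were seen. Genes of alkylation and base excision repair, the route that removes the kind of base damage STZ makes, had 0 of 11 tested called (median 0.12). In the BCL-2 family 0 of 7 were called (median -0.24).

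Pups carried little of the clearest responder. Phlda3 in their beta cells was 2.03 CPM at day 3, 0 and 6.25 at day 12 and 4.49 at day 21, with 19 of 24 UMIs of the second day 12 library in 1 cell (79.2%). All but the first day 12 library thus lay above the adult controls at 1.42 to 1.46 CPM. Ccng1 was 28.7 to 35.6 CPM in pups, below every adult control. Across 57 sums of library and class, genes among those most like Phlda3 in level were Ssr4 (Pearson r = 0.66), Dapl1 (0.64), Spc25 (0.63) and Slc5a10 (0.63). Within the 13 beta cell sums alone, these genes had 0.79 (Ssr4), 0.42 (Dapl1), -0.19 (Spc25) and 0.69 (Slc5a10) with Phlda3. For Ccng1 the most alike across the 57 sums were Vgf (0.63), Dapl1 (0.62), Cdkn1a (0.58), Cycs (0.57) and Sh3glb1 (0.56). The sums share libraries and depth, so these values only describe them.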

How the data were processed

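UMI counts per gene and cell were used as deposited, 1 table for 2999 cells, with every cell matched to a library. Per the submitters' processing notes, the authors worked with build mm10, with TopHat2 2.1.0 and with UMI-tools 0.5.0, SAMtools 1.3.1 and featureCounts 1.5.3 also named. Their order and filters are not given in the sources used here. The 6 rows without a gene symbol (611 UMIs) were kept under their gene identifiers. Cells were clustered on 1000 variable genes without the members (20 components, 20 neighbours, Leiden resolution 0.3, then 0.3 again within non-beta clusters of at least 100 cells) and named from at least 3 markers. Doublets were not called, as cells were picked singly. Counts were summed per library and class with at least 5 cells and tested with edgeR 4.0.16 (R 4.3.3; TMM, filterByExpr, quasi-likelihood F test, Benjamini-Hochberg adjustment over all genes tested, threshold 0.05), which was also tested on simulated data. SE were derived from that test. DESeq2 1.42.0 was an alternative. A month counted as 30 days for the trend. Other steps used Python 3.11.15, SciPy 1.17.1, scikit-learn 1.9.0 and leidenalg 0.10.2. Thinning drew 30392 UMIs per beta and 23772 per alpha cell, and shallower cells were left out. Libraries held 1420536 to 26298456 UMIs, and 3 counts were taken as the limit that a count of 0 allows.

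The batch number in the labels equals the replicate number. Deviations of same-numbered libraries from their group means correlated at 0.00621 to 0.171 over 5814 genes, so the numbers were not taken to pair the libraries. The genes named are the 9 members, genes of the other lists that passed in beta cells for STZ against control, and the 5 genes most like Phlda3 and Ccng1, of which 1 is not reported here. Members and lists were chosen with earlier results of these data known.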

Additional observations from a re-analysis of the deposited data

Results flagged for a closer look

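In 43 sets of STZ libraries, 1 per member and class, 6 had a highest library far from the others, and chance gives about 1 in 20. In beta cells day 6 stood apart for Phlda3 (114 CPM, next 47.6), Ccng1 (333 CPM, next 148) and Trp53inp1 (108 CPM, next 63.3). In delta cells month 9 stood apart for Bax (101 CPM, next 66.9) and Zmat3 (22.1 CPM, next 10.3). In acinar cells month 5 stood apart for Trp53inp1 (151 CPM, next 84.4), and 73.1% of its 26 acinar cells carried another class's leading gene. The STZ effect on Phlda3 differed between beta and acinar cells by log2 5.83 in the test of that difference.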

How the results depend on the processing

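Over the whole STZ arm in beta cells, the 1 called member became 2 with no filter on low counts and without day 6 and month 2 together, and 0 within the single run. Leaving out any library kept 1. All genes called numbered 302 as reported, 570 with DESeq2, 479 with no filter, 469 without day 6 and month 2, 86 with the block and 2 within the run. The 3 calls at single times became 5 with DESeq2, 13 with no filter, 10 with controls and implanted STZ libraries only, 9 with at least 10 cells, and 1 to 9 when 1 library was left out, with 1 without day 6 and 9 without either library lacking implants. Days 6 and 12 against later times gave 3 calls with no filter, and beta against alpha cells gave 1. Beta against acinar cells gave 2 with DESeq2 and with no filter, 0 without cells carrying another class's leading gene, and 0 to 2 when 1 library was left out. Calls at single times in PP cells were 0 to 2 when 1 library was left out. The cause of these changes was not tested.

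Signs turned for small differences. Mdm2 in beta cells was 0.0035 without cells carrying another class's leading gene, 0.074 with at least 10 cells, 0.0018 without day 6 and month 2, and -0.18 to 0.074 when 1 library was left out. Zmat3 was -0.0069 with no filter, -0.043 thinned, -0.41 within the run, -0.12 without day 6 and month 2, and -0.25 to 0.22. Ccng1 at month 9 was -0.038 to 0.22. Cdkn1a without implants was 0.43 with at least 10 cells and -2.91 to 0.43. Without cells carrying another class's leading gene, beta minus alpha was -0.052 for Ccng1 and -0.23 for Cdkn1a, and acinar Phlda3 was 1.32, each with 1 control library left. With 1 library left out, beta minus alpha Cdkn1a was -0.049 to 1.59, beta minus delta Cdkn1a -0.37 to 1.06, alpha Ccng1 -0.15 to 0.71, delta Ccng1 -0.54 to 0.082 (0.082 also with at least 10 cells), acinar Phlda3 -3.06 to 0.99 and acinar Cdkn1a -0.40 to 0.99.

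With the batch number as a replicate block, calls at single times were 2, Phlda3 over the whole arm stayed called at 4.67, and Cdkn1a without implants was 0.22. The fits without day 6 and month 2, on implanted libraries alone, and with 10 cells at single times were chosen after seeing the data. Leaving out cells with another class's leading gene was not run for delta and PP cells, nor the minimum of 10 cells for PP cells. Few beta cells limit month 2 and the libraries without implants.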
